A study of Homo sapiens with 480 samples.

Results

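The 30 genes of cholesterol synthesis and its control described here were followed through Jurkat and J-Lat A2 cells given a histone deacetylase inhibitor or a phorbol ester. They were taken as a list of named genes, and all 30 were found among the 20302 features of the deposited table. The list holds 8 enzymes from acetyl-CoA to the isoprenoids, 11 enzymes from squalene to cholesterol, 5 genes of sterol sensing, 4 genes of sterol transport, storage and efflux, and 2 enzymes of fatty acid synthesis. Jurkat cells are an established line from a human T cell leukaemia. J-Lat A2, derived from Jurkat as 1 clone, has a construct made from HIV in its genome that is largely silent until the cells are stimulated. Cells of each line were kept for 24 h with 0.1% v/v DMSO (the vehicle), with 1 uM SAHA (vorinostat, which inhibits histone deacetylases) or with 1 ug/mL PMA (which activates protein kinase C), then sorted 1 per well. The 480 wells lay on 5 plates, 2 of a first and 3 of a second experimental batch. J-Lat A2 with DMSO, J-Lat A2 with SAHA and Jurkat with DMSO were in both batches, whereas J-Lat A2 with PMA, Jurkat with SAHA and Jurkat with PMA were in the second alone.

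Cells build cholesterol from acetyl-CoA through mevalonate, isoprenoid diphosphates, squalene and lanosterol. When sterols in the endoplasmic reticulum run low, SCAP escorts the sterol regulatory element-binding proteins (encoded by SREBF1 and SREBF2) to the Golgi, where proteases free a fragment that switches on most enzymes of the path. When sterols are plentiful, INSIG1 and INSIG2 hold SCAP back, and liver X receptors switch on sterol exporters such as ABCA1 and ABCG1. Proliferating T cells draw on the same path for new membrane.

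Wells with under 0.1 of their plate's median total, or under 500 genes detected, were set aside, leaving 410 cells. J-Lat A2 gave 94 cells with DMSO, from 96 wells, and 79 with PMA, from 81. SAHA left 67 cells from 120 J-Lat A2 wells of the first batch and 68 from 81 of the second, while no Jurkat well was set aside (30 with DMSO, 36 with SAHA and 36 with PMA). Counts of the kept cells were summed per group and batch into 9 sums of 4682181 to 36603816 counts, and levels are given as TMM-normalised CPM (counts scaled to 1000000 per sum). The T lineage of the cells was checked with 14 markers: their summed level was 4770 to 5333 CPM with DMSO, between 931 and 1274 CPM in the SAHA sums, and 13272 CPM (Jurkat) and 14338 CPM (J-Lat A2) after PMA. The 7 myeloid markers summed to at most 2.86 CPM, with CSF1R, FCGR3A and MPO at 0 in every sum, and the erythroid and megakaryocytic markers to at most 5.11 CPM, with HBB, PF4 and PPBP at 0 in every sum. The B lineage list summed to 1.498 to 90.9 CPM, most of it CD79A except in Jurkat with SAHA, with MS4A1, CD79B, PAX5 and CD22 at 0 in every sum. The stromal and epithelial list summed to 13.5 to 250.8 CPM, most of it PECAM1, with COL1A2, DCN and EPCAM at 0 in every sum. CD79A and PECAM1 fell with SAHA in J-Lat A2 (adjusted p = 0.00577 and 0.00361, edgeR) and in Jurkat (adjusted p = 0.0263 and 0.00825), and their part in the results was not tested.

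All 30 genes passed the filter on low counts and were tested among 13560 genes. CYP51A1 and ABCA1 had almost no counts with DMSO and passed through groups given SAHA or PMA alone. The call of CYP51A1 below therefore rests on the group that let it pass. SAHA against DMSO in J-Lat A2 split the list: 5 members (IDI1, INSIG1, TM7SF2, STARD4 and CYP51A1) rose and 4 (FDPS, ACAT2, FDFT1 and DHCR7) fell (adjusted p under 0.05, edgeR quasi-likelihood test with Benjamini-Hochberg adjustment over all genes tested), where 3.53% of all genes tested rose and 4.9% fell. The median log2 change of the 30 members was 0.03, against 0.12 over all genes tested, and it was -0.06 over the 28 members without CYP51A1 and ABCA1, which had 3 counts or fewer in the DMSO groups. By role, the 8 early enzymes gave 1 higher and 2 lower, the 11 squalene and sterol enzymes 2 higher and 2 lower, the 5 sensing genes 1 higher and the 4 transport genes 1 higher. In Jurkat cells 7 members were called with SAHA, each of them lower (3 early enzymes and 4 squalene and sterol enzymes), where 1.84% of all genes tested rose and 2.37% fell, and the members' median was -0.48 against 0.11. Single sums moved these medians: that of J-Lat A2 was -0.18 without its first DMSO sum and 0.11 without its second, and that of Jurkat was -0.30 without its first DMSO sum, -0.74 without its second and -0.22 on the second batch alone. DESeq2 called 12 members for SAHA in Jurkat. It also called more of all genes than edgeR, with the counts given in the last section. The shares of all genes given here and below are those of edgeR and are no background for DESeq2 counts. The contrasts of the lines do not share control samples.

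**Figure D1:**
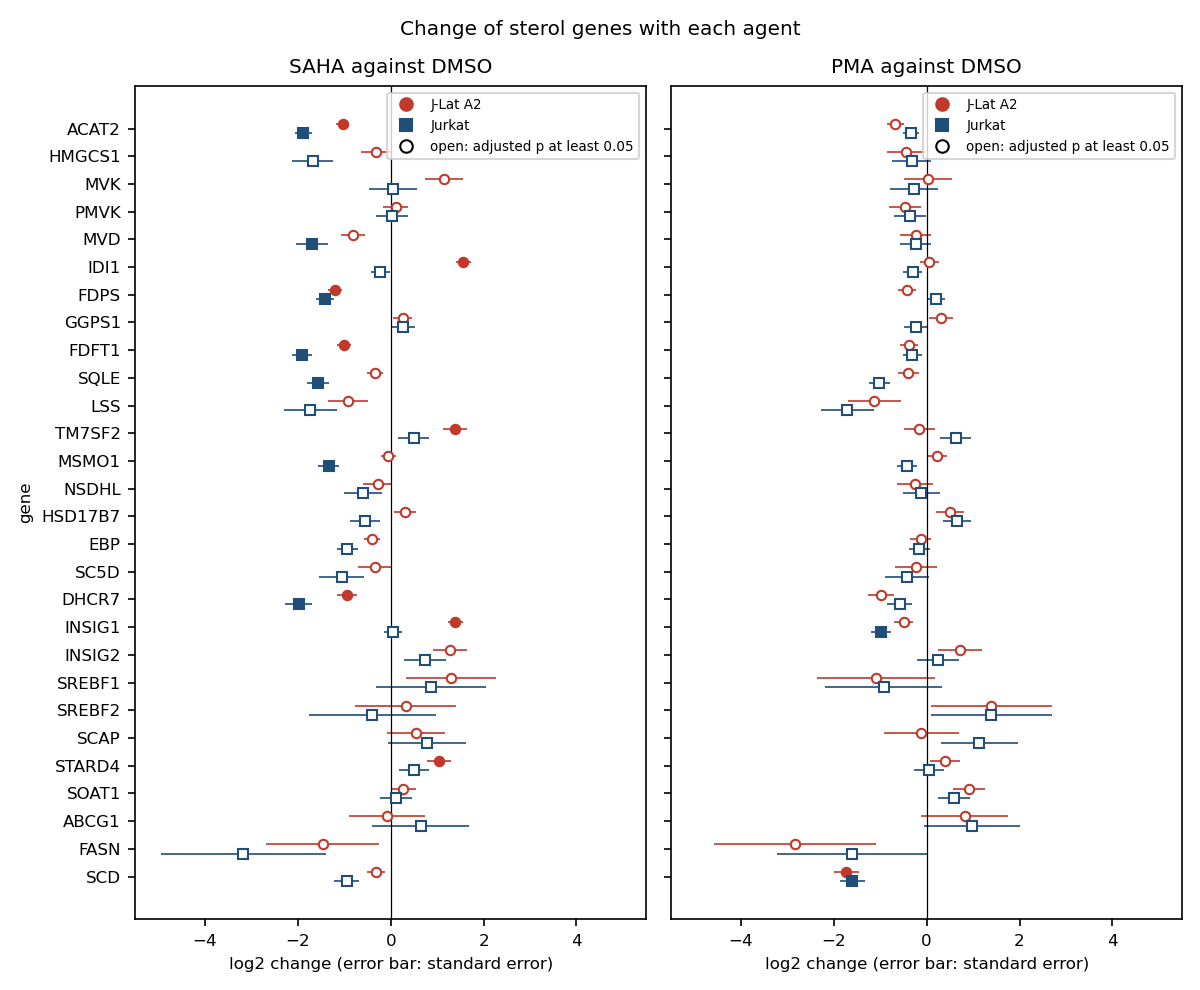
Log2 change (x axis) of 28 of the 30 genes (y axis, in the order of the path, then sensing, transport and fatty acid synthesis) with SAHA and with PMA, relative to DMSO of the same line. Circles are J-Lat A2, squares are Jurkat, bars are standard errors, and filled symbols passed the test; ACAT2, FDPS, FDFT1 and DHCR7 lie left of 0 with SAHA in both lines, while IDI1 and INSIG1 lie at 1.56 and 1.39 in J-Lat A2 and near 0 in Jurkat.

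RefSeq promoter windows of 250 bases before to 50 after the start (GRCh38.p14) were found for 25 of the 30 members. CCAAT, the site of the NF-Y factor that works beside the sterol regulatory proteins, searched on both strands, was in a window of 19 of the 25 members and of 39.7% of 27305 genes. GGGCGG, the GC box, was in 24 of 25 against 48.3%, and its first bases can be shared with a CCAAT match on the other strand. CACGTG, an E box, was in 5 of 25 against 8.77%, and TCACNCCAC, a strict form of the sterol response element, was in SREBF2 alone among the 25 and in 1.39% of all genes. The 27305 genes were all genes with a window, expressed here or not, whereas the members all passed the filter on low counts. Their shares are therefore not a matched background for the members. Matches are letters in a window and were not measured as binding.

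Stretches of 100 bases are shown for 4 genes that rose with SAHA in J-Lat A2, for 4 that fell in Jurkat, for SCD, which fell with PMA in both lines, and for SREBF2, which holds the strict element. They run 5′ to 3′ along the gene's strand, and capitals mark CCAAT, its reverse complement ATTGG, and TCACNCCAC.
IDI1 (chr10:1048959-1049058, minus strand): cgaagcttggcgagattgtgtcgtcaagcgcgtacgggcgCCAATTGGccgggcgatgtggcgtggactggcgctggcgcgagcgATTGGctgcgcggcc
TM7SF2 (chr11:65111713-65111812, plus strand): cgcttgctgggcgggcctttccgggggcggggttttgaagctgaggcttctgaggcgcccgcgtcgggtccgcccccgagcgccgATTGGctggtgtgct
INSIG1 (chr7:155297628-155297727, plus strand): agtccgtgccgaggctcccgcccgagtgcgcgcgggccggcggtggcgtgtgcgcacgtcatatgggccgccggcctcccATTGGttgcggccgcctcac
STARD4 (chr5:111512651-111512750, minus strand): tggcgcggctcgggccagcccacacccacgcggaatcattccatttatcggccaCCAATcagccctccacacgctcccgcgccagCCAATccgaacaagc
FDPS (chr1:155308659-155308758, plus strand): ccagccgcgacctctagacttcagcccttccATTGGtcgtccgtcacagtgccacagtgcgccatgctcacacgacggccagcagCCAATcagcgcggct
DHCR7 (chr11:71448427-71448526, minus strand): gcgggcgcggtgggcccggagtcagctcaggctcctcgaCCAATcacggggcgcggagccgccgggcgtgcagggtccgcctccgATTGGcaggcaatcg
MVD (chr16:88663162-88663261, minus strand): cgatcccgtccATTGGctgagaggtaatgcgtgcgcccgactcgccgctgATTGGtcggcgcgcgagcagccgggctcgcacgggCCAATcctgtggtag
MSMO1 (chr4:165327445-165327544, plus strand): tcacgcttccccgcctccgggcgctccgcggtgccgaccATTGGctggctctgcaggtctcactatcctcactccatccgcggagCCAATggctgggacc
SCD (chr10:100346983-100347082, plus strand): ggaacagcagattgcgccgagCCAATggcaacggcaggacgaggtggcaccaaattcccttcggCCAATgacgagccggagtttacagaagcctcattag
SREBF2 (chr22:41832914-41833013, plus strand): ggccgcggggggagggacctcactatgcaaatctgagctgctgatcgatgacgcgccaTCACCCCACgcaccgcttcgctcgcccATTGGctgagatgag
Each stretch was placed before the start where it held the most of these matches, over all windows of the gene. A gene without a match would not have been shown. That the genes shown hold a match, whether they rose or fell with SAHA, therefore follows from this choice. IDI1 and MVD hold 3 CCAAT matches each in the stretch shown, FDPS, DHCR7 and STARD4 hold 2, and TM7SF2 and INSIG1 hold 1. MSMO1 and SCD hold 2 matches and SREBF2 holds 1. The window of CYP51A1, which rose, held a GC box and no CCAAT, and no window was used for ACAT2, FDFT1, SQLE, FASN and ABCG1.

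Of the early enzymes, ACAT2 and FDPS were lower with SAHA in both lines. ACAT2 (chr6:159760328-159779055 in GRCh38, plus strand), which joins acetyl-CoA units in the cytosol, stood at 734 and 1045 CPM in the 2 batches of J-Lat A2 with DMSO and at 353 and 515.7 CPM with SAHA. In Jurkat it stood at 1179 and 1569 CPM with DMSO and 436 CPM with SAHA. The SAHA sums lay below each DMSO sum of their line, and so did the plates, at 337 to 638 CPM against 656 to 1136 CPM in J-Lat A2 and 349.6 to 559 against 904 to 1850.2 CPM in Jurkat. ACAT2 fell by a log2 change of -1.04 ± 0.13 (SE) in J-Lat A2 (adjusted p = 0.00168) and of -1.89 ± 0.18 (SE) in Jurkat (adjusted p = 0.00136). ACAT2 overlaps TCP1 and SOD2 on the other strand, and no source used here says that the counting used strand.

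FDPS (chr1:155308748-155320666, plus strand) makes farnesyl diphosphate, the branch point toward sterols and prenylated proteins. Its level was 857 and 1244 CPM in J-Lat A2 with DMSO and 416 and 486 CPM with SAHA, and in Jurkat 878 and 993 CPM with DMSO and 389.8 CPM with SAHA. Per plate, 413 to 548 CPM with SAHA and 829 to 1683 CPM with DMSO in J-Lat A2 did not overlap, nor did those of Jurkat, at 367 to 419.9 CPM with SAHA and 702.005 to 1138 CPM with DMSO. FDPS fell by a log2 change of -1.20 ± 0.15 (SE) in J-Lat A2 (adjusted p = 0.00134) and -1.42 ± 0.20 (SE) in Jurkat (adjusted p = 0.00521). The annotation lists 8 pseudogene copies of FDPS that could share its reads.

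IDI1 (chr10:1039152-1049170, minus strand; 3 CCAAT matches in the sequence printed), the isomerase that acts just before FDPS in the same path, moved the other way in J-Lat A2. It stood at 323 and 655 CPM with DMSO and 902 and 2031 CPM with SAHA, so the SAHA sums lay above both DMSO sums. IDI1 rose by a log2 change of 1.56 ± 0.16 (SE) (adjusted p = 0.000453), and it was higher in 4 of 5 plates, the exception being P2458 with 401 CPM against 418 CPM. In Jurkat IDI1 was at 620.3 and 980.0 CPM with DMSO and 933 CPM with SAHA, inside the DMSO range, with a log2 change of -0.22 ± 0.20 (adjusted p = 0.687).

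MVD (chr16:88651935-88663161, minus strand), which makes the first isoprenoid diphosphate, was called in Jurkat, with 150.5 and 106.7 CPM with DMSO and 34.7 CPM with SAHA. The 3 SAHA plates, at 28.2 to 45.1 CPM, lay below the 5 DMSO plates at 70.2 to 200.1 CPM, and MVD fell by a log2 change of -1.69 ± 0.35 (SE) (adjusted p = 0.0263). In J-Lat A2 its change of -0.81 ± 0.25 had an adjusted p of 0.0884, with 71.8 and 58.5 CPM with DMSO and 40.5 and 33.8 CPM with SAHA. HMGCS1, which makes HMG-CoA, had a Jurkat change of -1.68 ± 0.44 that did not pass (adjusted p = 0.0695), from 89.5 CPM in each DMSO sum to 27.7 CPM. MVK and PMVK, the kinases of mevalonate and its phosphate, and GGPS1, which lengthens farnesyl to geranylgeranyl diphosphate, passed in neither line with SAHA. Their changes ran from 0.10 to 1.15 in J-Lat A2 and from 0.025 to 0.27 in Jurkat.

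Among the squalene and sterol enzymes, FDFT1, squalene synthase and the first step committed to sterols, was lower with SAHA in both lines. Its level was 1574 and 2063 CPM in J-Lat A2 with DMSO and 777 and 1026 CPM with SAHA. In Jurkat it was 2966 and 2789.8 CPM with DMSO and 832 CPM with SAHA. Neither the sums nor the plates overlapped, with 758 to 1089.9 CPM on SAHA plates and 1469 to 2452 CPM on DMSO plates of J-Lat A2, and 649 to 1036 and 2145 to 3996 CPM in Jurkat. FDFT1 fell by a log2 change of -1.01 ± 0.15 (SE) in J-Lat A2 (adjusted p = 0.00353) and -1.92 ± 0.21 (SE) in Jurkat (adjusted p = 0.00215).

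DHCR7 (chr11:71428193-71452868, minus strand), the reductase that yields cholesterol from its immediate precursor, followed the same pattern. It was at 156.2 and 217 CPM with DMSO and 99.2 and 92.2 CPM with SAHA in J-Lat A2, and at 239 and 284 CPM with DMSO and 70.8 CPM with SAHA in Jurkat. The SAHA plates, at 41.7 to 122.4 CPM in J-Lat A2 and 57.6 to 91.1 CPM in Jurkat, lay below the DMSO plates at 135.6 to 249 and 162.4 to 398 CPM. DHCR7 fell by a log2 change of -0.94 ± 0.21 (SE) in J-Lat A2 (adjusted p = 0.0221) and -1.98 ± 0.29 (SE) in Jurkat (adjusted p = 0.00605).

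SQLE, squalene epoxidase, and MSMO1, which oxidises the methyl groups of sterol intermediates, passed in Jurkat. SQLE stood at 272 and 335 CPM with DMSO and 108.04 CPM with SAHA in Jurkat, and at 224 and 239 CPM with DMSO and 176.7 and 191.3 CPM with SAHA in J-Lat A2. Its Jurkat plates did not overlap, with 237 to 437 CPM with DMSO and 61.7 to 167.5 CPM with SAHA, whereas those of J-Lat A2 did. SQLE fell by a log2 change of -1.57 ± 0.23 (SE) in Jurkat (adjusted p = 0.00695), beside -0.33 ± 0.17 in J-Lat A2 (adjusted p = 0.322). MSMO1 (chr4:165327623-165343160, plus strand) was at 382 and 485 CPM with DMSO and 199.2 CPM with SAHA in Jurkat, with plates of 243 to 681 and 144.99 to 297 CPM that overlapped. MSMO1 fell by a log2 change of -1.34 ± 0.22 (SE) in Jurkat (adjusted p = 0.0112), and in J-Lat A2 it stood at 161.3 and 244 CPM with DMSO and 167.6 and 220.1 CPM with SAHA, a change of -0.05 ± 0.16 (adjusted p = 0.926).

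TM7SF2 (chr11:65111845-65116384, plus strand), a sterol reductase, was the sterol enzyme that rose in J-Lat A2 with more than a few counts in DMSO. Its level was 40.9 and 46.1 CPM with DMSO and 92.6 and 137.7 CPM with SAHA, and the plates, at 35.6 to 63.2 and 87.2 to 160.9 CPM, did not overlap. TM7SF2 rose by a log2 change of 1.38 ± 0.26 (SE) (adjusted p = 0.0108), and in Jurkat, at 53.2 and 59.5 CPM with DMSO and 88.04 CPM with SAHA, its change of 0.49 ± 0.33 had an adjusted p of 0.533. TM7SF2 overlaps VPS51 on the same strand, so reads of the overlap cannot be assigned from the table alone. VPS51 moved the other way, from 61.1 and 70.7 CPM with DMSO to 42.3 and 22.2 CPM with SAHA in J-Lat A2. In Jurkat VPS51 was at 88.2 and 40.2 CPM with DMSO and 18.4 CPM with SAHA. The part of a shift of reads between the 2 genes in the TM7SF2 change was not tested.

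CYP51A1, lanosterol demethylase, was called higher in J-Lat A2 (adjusted p = 0.045), but its value is uncertain. It had 3 counts over the 2 DMSO sums of J-Lat A2 and 441 over the SAHA sums, a ratio of 116.3 with a 95% counting interval of 39.5 to 566, with reads in 10.4% of the SAHA cells. The plates gave 2.93 to 11.5 CPM with SAHA and 0 to 0.159 CPM with DMSO. In Jurkat the counts were 1 with DMSO and 255 with SAHA, and the change did not pass (adjusted p = 0.0871). The annotation places the gene (chr7:92112151-92134803, minus strand) across 2 other protein-coding features on the same strand, which hold most counts of the locus in the DMSO sums. Summed over the 3 features, a quantity chosen after the values were seen, the locus gave 5.89 and 6.59 CPM with DMSO and 17.6 and 12.4 CPM with SAHA in J-Lat A2. In Jurkat it gave 7.75 and 34.1 CPM with DMSO and 35.2 CPM with SAHA, where the SAHA sum lay just above the higher DMSO sum.

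The other 5 sterol enzymes, LSS (lanosterol synthase), NSDHL and HSD17B7 (partners of MSMO1), EBP (a sterol isomerase) and SC5D (a sterol desaturase), passed in neither line with SAHA. Their changes ran from -0.92 to 0.31 in J-Lat A2 and from -1.73 to -0.55 in Jurkat, where EBP came nearest the threshold (adjusted p = 0.0559). Summed over all 19 enzymes of both groups, J-Lat A2 cells held 4854 and 6575 CPM with DMSO and 3662 and 5513 CPM with SAHA, and Jurkat cells held 7852 and 8666 CPM with DMSO and 3850 CPM with SAHA. The summed level with SAHA was below each DMSO sum in Jurkat, and in J-Lat A2 it was below the DMSO sum of the same batch. The 11 squalene and sterol enzymes alone summed to 2619 and 3334 CPM with DMSO and 1667 and 2159 CPM with SAHA in J-Lat A2, with no overlap. FDFT1 alone made up 1574 and 2063 CPM of these sums with DMSO and 777 and 1026 CPM with SAHA. The 8 early enzymes summed to 2234 and 3241 CPM with DMSO and 1995 and 3353 CPM with SAHA in J-Lat A2, which overlapped.

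INSIG1 (chr7:155297776-155310235, plus strand), which anchors SCAP and is itself a target of the sterol regulatory proteins, was the sensing gene that rose in J-Lat A2. Its level was 614 and 548 CPM in J-Lat A2 with DMSO and 1334 and 1728 CPM with SAHA. The plates, at 511.1 to 662 and 1290.4 to 1932 CPM, were far apart, and INSIG1 rose by a log2 change of 1.39 ± 0.16 (SE) (adjusted p = 0.000868). In Jurkat INSIG1 was at 1205 and 1279 CPM with DMSO and 1324 CPM with SAHA, close to the lower of the J-Lat A2 sums with SAHA, and the change was 0.044 ± 0.20 (adjusted p = 1). INSIG2, the related anchor, had a change of 1.27 ± 0.37 in J-Lat A2 that did not pass (adjusted p = 0.0653), from 27.4 and 20.4 CPM to 46.8 and 70.3 CPM. SREBF1, SREBF2 and SCAP stood at 2.04 to 24.1 CPM in all groups, passed in neither line with SAHA or PMA, and had standard errors of 0.63 to 1.36 in log2 change, so their transcripts were measured too thinly to show changes of the size seen for INSIG1.

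STARD4 (chr5:111496033-111512590, minus strand), a carrier of cholesterol between membranes, stood at 53.6 and 50.9 CPM in J-Lat A2 with DMSO and 91.2 and 125.5 CPM with SAHA. The sums did not overlap but the plates did, at 24.2 to 88.5 and 72.1 to 179.4 CPM, and STARD4 rose by a log2 change of 1.04 ± 0.25 (SE) (adjusted p = 0.0336). In Jurkat it was at 72.7 and 75.3 CPM with DMSO and 109.97 CPM with SAHA (adjusted p = 0.515). SOAT1, which esterifies cholesterol for storage, and the exporter ABCG1 passed in no contrast with SAHA or PMA. ABCA1, the other exporter, had 0 counts in the DMSO sums of both lines, 47 counts with SAHA in J-Lat A2, all in the second batch, and 25 with SAHA in Jurkat, found in 2 cells each. With so few cells no fold is given for it, and it passed in neither line.

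Genes of the cell cycle and T cell markers moved in the same contrasts. A list of 24 genes active in G2 and mitosis summed to 6304 to 6896 CPM in the 4 DMSO sums, 10809 and 11663 CPM in J-Lat A2 with SAHA, and 14840 CPM in Jurkat with SAHA. Of the 24, 13 rose with SAHA in J-Lat A2 and 12 in Jurkat, where 3.53% and 1.84% of all genes tested rose. Of the 14 T lineage markers 10 and 8 fell, where 4.9% and 2.37% of all genes tested fell. The part of either list in the changes of the sterol genes was not tested. The median share of mitochondrial counts was 3.20% to 3.66% in the DMSO sums and 4.51% to 4.94% with SAHA, and its part was not tested either.

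Leaving out 1 sum changed the J-Lat A2 result: 4 members passed without the second DMSO sum, 6 without the first, 5 without the second SAHA sum and 8 without the first, and IDI1, INSIG1, FDPS and ACAT2 passed each time. The calls of TM7SF2 and STARD4 were lost without either DMSO sum or the second SAHA sum, that of DHCR7 without the second sum of either group, that of FDFT1 without the second DMSO sum, and that of CYP51A1 without any of the 4. When each cell had equal weight (limma on the log2 mean CPM), 0 of the 13560 genes passed in any comparison, with 14 members at an unadjusted p under 0.05 for SAHA in J-Lat A2 and 11 in Jurkat. No share of all genes at an unadjusted p under 0.05 is given here. These counts, and the other unadjusted counts below, are therefore not read as a result about the genes counted.

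**Figure D2:**
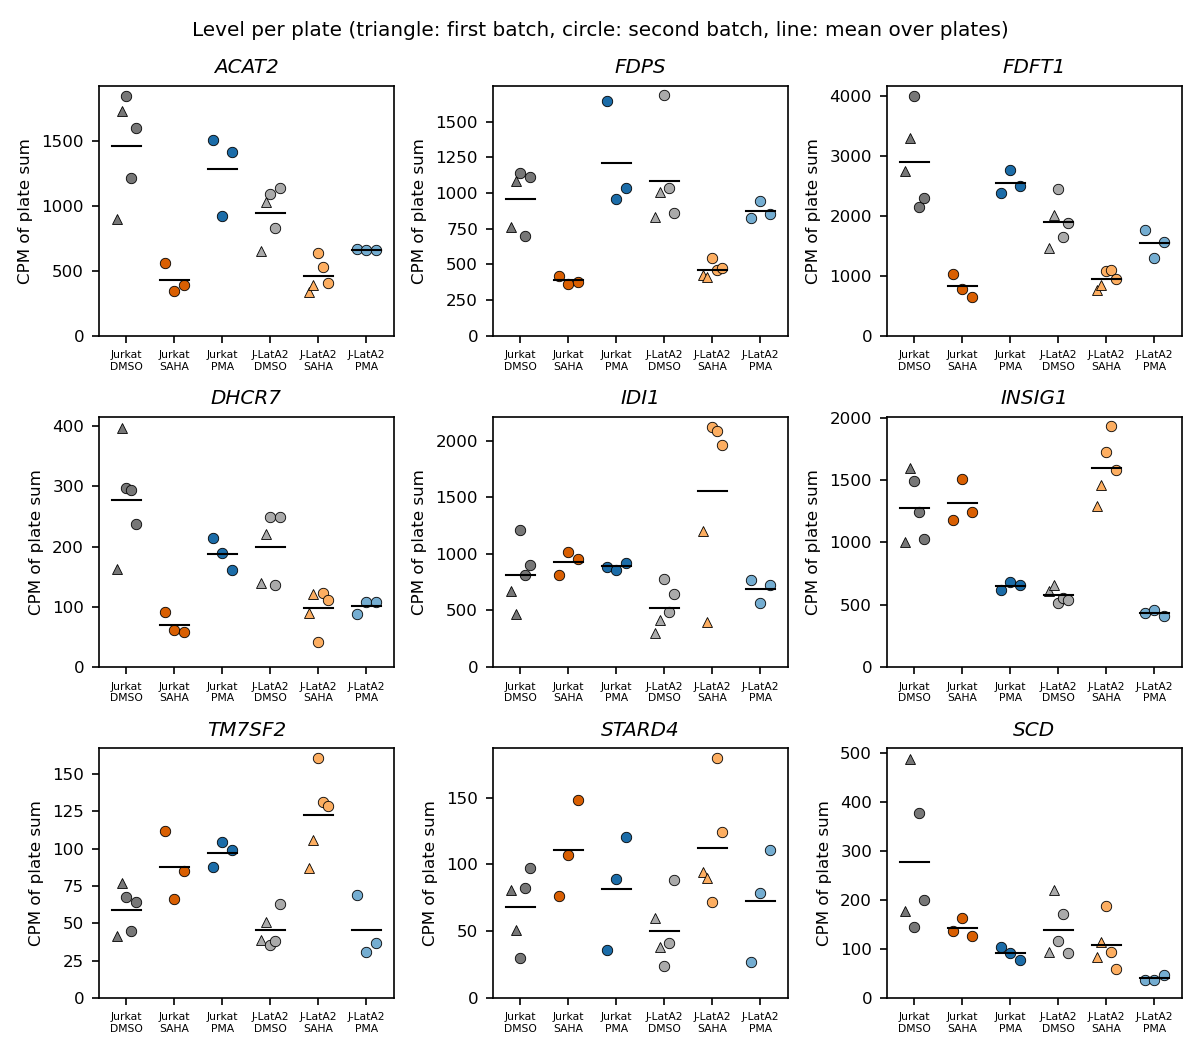
CPM (y axis) of 9 genes in the sum of each plate for the 6 groups (x axis); triangles are plates of the first batch, circles those of the second, and the line is the mean over plates. ACAT2, FDPS, FDFT1 and DHCR7 have lower means with SAHA than with DMSO in both lines, INSIG1 is 511.1 to 662 CPM in J-Lat A2 with DMSO and 1290.4 to 1932 CPM with SAHA, and SCD is 35.9 to 47.2 CPM in J-Lat A2 with PMA.

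PMA against DMSO left most of the path without a call, and these contrasts share the DMSO sums with the SAHA contrasts above. In J-Lat A2, SCD was the 1 member called, and it fell, where 1.18% of all genes tested rose and 0.804% fell. In Jurkat, SCD and INSIG1 were called, both lower, where 1.17% rose and 1.11% fell. The members' median log2 change was -0.23 in J-Lat A2, against 0.04 over all genes, and -0.26 in Jurkat, against 0.07. The J-Lat A2 median was -0.08 without the first J-Lat A2 SAHA sum, -0.09 without the second and -0.07 without the batch term. The Jurkat median was -0.14 without the first Jurkat DMSO sum, -0.13 without the batch term and -0.12 on the second batch alone. None of the 19 enzymes passed the edgeR test in either line, with 2 and 3 of them at an unadjusted p under 0.05, and DESeq2 called 2 of them in J-Lat A2 (ACAT2 and DHCR7) and 1 in Jurkat (SQLE).

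SCD (chr10:100347124-100364834, plus strand), which puts the double bond into newly made fatty acids, stood at 122.8 and 129.7 CPM in J-Lat A2 with DMSO and 39.02 CPM with PMA. In Jurkat it stood at 278 and 261 CPM with DMSO and 91.2 CPM with PMA. The 3 PMA plates of each line, at 35.9 to 47.2 and 78.1 to 103.9 CPM, lay below all 5 DMSO plates, at 92.7 to 221 and 144.6 to 488 CPM. SCD fell by a log2 change of -1.73 ± 0.27 (SE) in J-Lat A2 (adjusted p = 0.012) and -1.60 ± 0.27 (SE) in Jurkat (adjusted p = 0.0164). Reads of SCD were found in 80 of 94 cells (85.1%, 76.3 to 91.6) of J-Lat A2 with DMSO and 31 of 79 cells (39.2%, 28.4 to 50.9) with PMA, where the brackets give the 95% Clopper-Pearson interval, which covers counting error only. After thinning to 100000 counts a cell the shares were 81.3% and 36.4%.

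INSIG1 was at 649 CPM in Jurkat with PMA, below the 1205 and 1279 CPM with DMSO, with plates of 618 to 681 and 999.9 to 1596 CPM that did not overlap. INSIG1 fell by a log2 change of -0.99 ± 0.21 (SE) in Jurkat (adjusted p = 0.0422). In J-Lat A2 it was at 426 CPM with PMA, below both DMSO sums, with a change of -0.50 ± 0.20 that did not pass (adjusted p = 0.348). SQLE in Jurkat, at 157.5 CPM with PMA and a change of -1.02 ± 0.23, had an adjusted p of 0.0532.

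FASN, the fatty acid synthase, was rare in every sum and passed in no contrast, and the shares of cells with a read of it are given without a test. In J-Lat A2, 55 of 94 cells (58.5%, 47.9 to 68.6) had a read with DMSO, 5 of 79 cells (6.33%, 2.09 to 14.2) with PMA and 11.9% of cells (6.93 to 18.5) with SAHA. In Jurkat the shares were 19 of 30 cells (63.3%, 43.9 to 80.1) with DMSO, 9 of 36 cells (25%, 12.1 to 42.2) with PMA and 5 of 36 cells (13.9%, 4.67 to 29.5) with SAHA. Thinned to 100000 counts, the shares in J-Lat A2 were 38.5%, 2.60% and 6.84%, and in Jurkat 43.3%, 11.1% and 5.56%. DMSO gave the highest share in both lines at equal depth as well. The levels were 6.47 and 6.95 CPM with DMSO, 2.81 and 2.00 CPM with SAHA and 0.978 CPM with PMA in J-Lat A2, and the log2 change with PMA was -2.83 ± 1.74 (adjusted p = 0.63).

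The cell cycle genes moved with PMA too: their summed level was 4898 CPM in J-Lat A2 and 3219 CPM in Jurkat. Of the 24 genes 3 and 8 fell, where 0.804% and 1.11% of all genes tested fell. In each line 5 of the 14 T lineage markers rose, where 1.18% and 1.17% of all genes tested rose. The part of either list in the sterol results was not tested. Without the second DMSO sum of J-Lat A2, 0 members passed in that line by edgeR, and without the second DMSO sum of Jurkat 0 passed there.

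**Figure D3:**
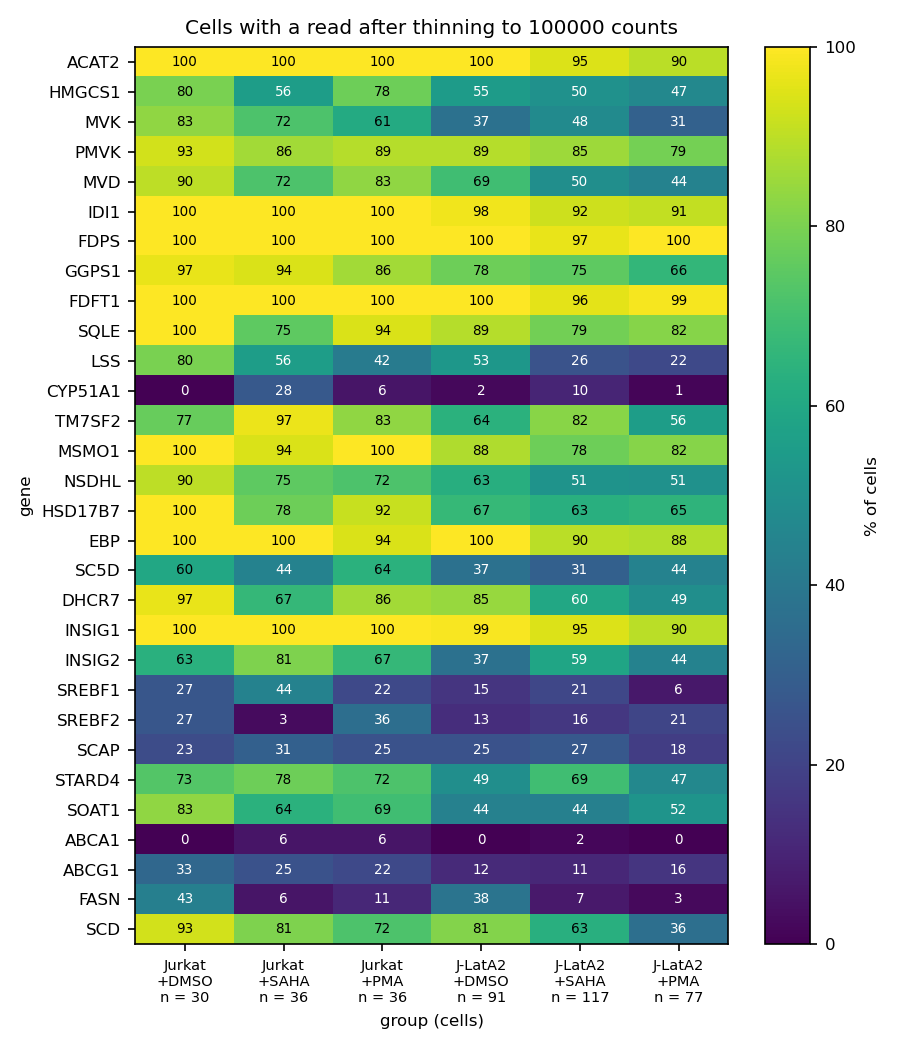
Percent of cells (colour and printed number) with at least 1 read of each of the 30 genes (y axis) in the 6 groups (x axis), after each cell was thinned to 100000 counts; n is the number of cells deep enough. FASN is at 38.5% in J-Lat A2 with DMSO and 2.6% with PMA, whereas FDPS and FDFT1 are above 95% in every group.

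Set directly against SAHA, PMA gave a lower INSIG1 level in both lines. In J-Lat A2, PMA was lower than SAHA for 4 members and higher for none, where 1.37% of all genes tested were lower and 2.25% higher. These were INSIG1 (log2 difference -1.89 ± 0.21 (SE), adjusted p = 0.000976), IDI1 (-1.50 ± 0.21, adjusted p = 0.00334), TM7SF2 (-1.54 ± 0.35, adjusted p = 0.0413) and SCD (-1.41 ± 0.27, adjusted p = 0.0185). FDPS, at 864 CPM with PMA and 416 and 486 CPM with SAHA, was next to the threshold (adjusted p = 0.0511).

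In Jurkat, PMA was higher than SAHA for 4 members and lower for 1, where 2.05% of all genes tested were higher and 1.81% lower. The 4 were ACAT2 (1269.5 CPM with PMA and 436 CPM with SAHA, log2 difference 1.54 ± 0.19 (SE), adjusted p = 0.00187), FDPS (1.63 ± 0.21, adjusted p = 0.00242), FDFT1 (1.61 ± 0.22, adjusted p = 0.00282) and DHCR7 (1.41 ± 0.30, adjusted p = 0.0299). INSIG1 was lower with PMA, with a log2 difference of -1.03 ± 0.22 (adjusted p = 0.0307). Each of these Jurkat groups was a single sum over 3 plates of the second batch, so the test borrows the spread of the groups that had both batches.

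With DMSO alone, INSIG1 and MSMO1 were lower in J-Lat A2 than in Jurkat. The fitted level of 25 of the 30 members was lower in J-Lat A2, with a median log2 difference of -0.57 against 0.06 over all genes, and 22 were lower in both batches. These 2 genes passed the test, where 0.251% of all genes tested were higher and 0.147% lower. INSIG1 was at 614 and 548 CPM in J-Lat A2 and 1205 and 1279 CPM in Jurkat, a log2 difference of -1.09 ± 0.16 (SE) (adjusted p = 0.0184). MSMO1 was at 161.3 and 244 CPM in J-Lat A2 and 382 and 485 CPM in Jurkat, a difference of -1.11 ± 0.17 (SE) (adjusted p = 0.021). The batch sums of the 2 lines did not overlap for either gene. SCD was next, with -1.10 ± 0.20 (adjusted p = 0.0628), and all 11 squalene and sterol enzymes had negative differences, CYP51A1 and its few counts included.

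The Jurkat DMSO sums rest on 12 and 18 cells. The share of all genes that DESeq2 called in this contrast is not given here, so its count of members in the next sentence has no background. Leaving out the second J-Lat A2 sum or either Jurkat sum took the count of members passing to 0 by edgeR, whereas DESeq2 called 10 members on all sums.

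The difference between the lines in the SAHA change was then tested itself, and it did not pass for any member by edgeR. The J-Lat A2 change minus the Jurkat change was above 0 for 25 of 30 members, with a median of 0.72 against -0.01 over all genes; since both changes are taken from DMSO, it holds the DMSO difference just described with its sign turned. By edgeR 0 of the 30 members passed, where 0.00737% of all genes tested did. Of the members, 8 had an unadjusted p under 0.05 by edgeR, and DESeq2 called 5 (ACAT2, IDI1, SQLE, MSMO1 and INSIG1). No share of all genes is given here for the unadjusted and DESeq2 counts. These counts, and those of the settings that follow, are therefore not read as a result about the members. The edgeR count was 1 on plate sums, 2 on the second batch alone and 2 without the first J-Lat A2 SAHA sum. IDI1 had the difference 1.78 ± 0.26 (SE) (adjusted p = 0.21) and INSIG1 1.34 ± 0.25 (SE) (adjusted p = 0.373). For the PMA change, 0 members passed by edgeR, where 0.0221% of all genes tested did, 2 had an unadjusted p under 0.05, and DESeq2 called 0.

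**Figure D4:**
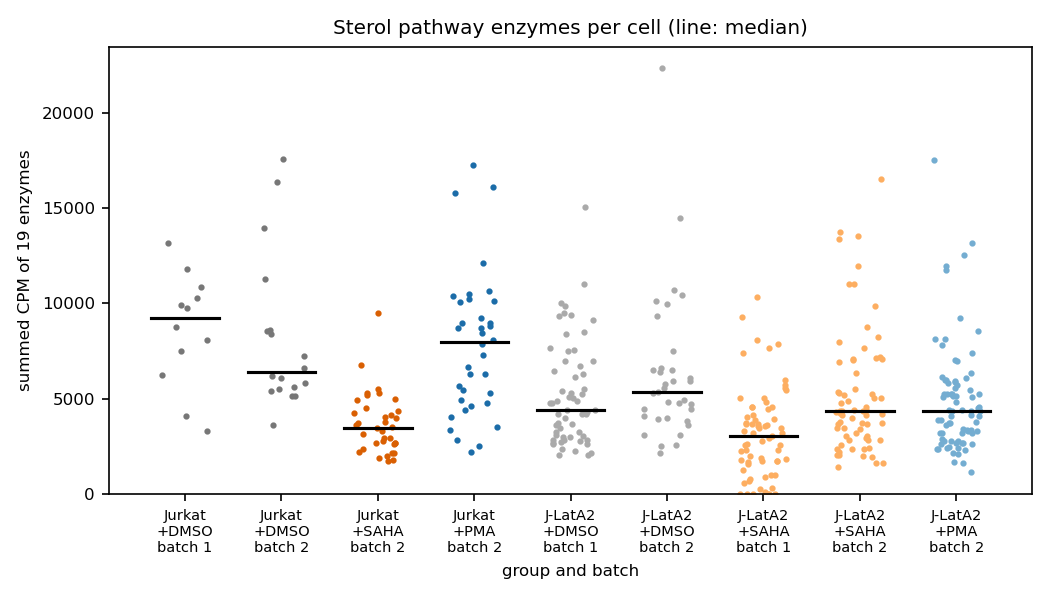
Summed CPM of the 19 enzymes in each kept cell (points, y axis) by group and batch (x axis), with the median as a line. The median is 3497 CPM in Jurkat with SAHA and 9262 and 6421 CPM in the 2 batches of Jurkat with DMSO, and cells of every group spread over a wide range.

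Within a group the enzymes varied from cell to cell. The summed CPM of the 19 enzymes ran from 2038 to 15055 among the 59 cells of J-Lat A2 with DMSO in the first batch, with a median of 4419, and from 1759 to 9498 among 36 Jurkat cells with SAHA, with a median of 3497. In J-Lat A2 the SAHA and DMSO cells lay further apart at the upper quartile than at the median for INSIG1 and IDI1 in each batch. INSIG1 had a median over cells of 545 CPM with DMSO and 450.3 CPM with SAHA in the first batch, with upper quartiles of 809 and 1423 CPM. In the second batch its medians were 504.9 CPM with DMSO and 834 CPM with SAHA, with upper quartiles of 751 and 1778 CPM. The INSIG1 median was lower with SAHA in the first batch and higher in the second, while the upper quartile was higher in both. The first-batch SAHA cells were shallower, with a median total of 284001 counts against 472011 with DMSO. In the second batch these totals were 555658 and 550336. The first-batch lower quartiles with SAHA were 4.68 CPM for INSIG1, 0 for IDI1, 14.1 for ACAT2 and 21.2 for FDPS. The part of depth in these spreads was not tested. IDI1 had a median over cells of 271 CPM with DMSO and 306 CPM with SAHA in the first batch, with upper quartiles of 459 and 914 CPM. In the second batch its medians were 508.96 CPM with DMSO and 1128 CPM with SAHA, with upper quartiles of 829.6 and 2431 CPM. No single cell decided either sum, since the largest held 6.53% of the INSIG1 counts and 5.67% of the IDI1 counts with SAHA. The lower levels of FDFT1 in Jurkat were seen in the middle and the upper part of the cells, with medians of 3266 and 2362 CPM in the 2 batches with DMSO and 620.3 CPM with SAHA, and upper quartiles of 4336, 2875 and 1036 CPM.

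Over 13 members and their 78 pairs, after thinning, the median Pearson r across cells was 0.22 in J-Lat A2 with DMSO (91 cells), 0.19 with SAHA (53 and 64 cells of the 2 batches) and 0.14 with PMA (77 cells). In Jurkat it was 0.35 with DMSO (30 cells), 0.11 with SAHA (36 cells) and 0.29 with PMA (36 cells). The closest pair in J-Lat A2 was ACAT2 and FDPS with DMSO (0.55), IDI1 and FDFT1 with SAHA (0.62) and FDPS and EBP with PMA (0.53). In Jurkat it was IDI1 and INSIG1 with DMSO (0.74), FDFT1 and INSIG1 with SAHA (0.61) and ACAT2 and IDI1 with PMA (0.77). Cells of a group share plates and batches, and these values describe the cells without a test.

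Genes next to the path were followed in 5 further lists. Of 20 genes of the proteases and the sterol-regulated degradation machinery, 1 rose and 1, not reported here, fell with SAHA in J-Lat A2 (3.53% and 4.9% of all genes tested), and 1 rose in Jurkat (1.84%). UFD1, a partner of the VCP segregase, rose with SAHA in both lines, from 207 and 236 CPM to 357 and 441 CPM in J-Lat A2 (log2 change 0.84 ± 0.17 (SE), adjusted p = 0.0132) and from 168.7 and 171.1 CPM to 453 CPM in Jurkat (1.33 ± 0.21, adjusted p = 0.00869). With PMA, edgeR called 0 of the 20 in either line, with 3 in J-Lat A2 and 2 in Jurkat at an unadjusted p under 0.05, and DESeq2 called 1 in each line.

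Of 19 tested genes of sterol uptake and transfer, edgeR called 2 higher and 1 lower with SAHA in J-Lat A2. Over all genes tested, 3.53% rose and 4.9% fell there. In Jurkat 1 was higher and 1 lower with SAHA, where 1.84% of all genes tested rose and 2.37% fell. NPC2, which carries cholesterol out of lysosomes, rose with SAHA in both lines. It went from 42.4 and 55.2 CPM to 118.5 and 153.8 CPM in J-Lat A2 (log2 change 1.48 ± 0.22 (SE), adjusted p = 0.00397) and from 44.8 and 59.3 CPM to 216 CPM in Jurkat (1.87 ± 0.28, adjusted p = 0.00682). LIPA, the lysosomal lipase that frees cholesterol from its esters, rose in J-Lat A2 (0.86 ± 0.23, adjusted p = 0.0465). TMEM97, a sterol-regulated membrane protein, fell in both lines, by a log2 change of -1.46 ± 0.25 in J-Lat A2 (adjusted p = 0.00667) and -2.28 ± 0.34 in Jurkat (adjusted p = 0.00702). The TMEM97 level was 137.05 and 199.8 CPM with DMSO and 36.2 CPM with SAHA in Jurkat, with the SAHA sum below both. With PMA, edgeR called 0 of the 19 in either line, with 2 in J-Lat A2 and 4 in Jurkat at an unadjusted p under 0.05, and DESeq2 called 0 and 3.

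Of 23 tested genes of fatty acid synthesis and activation, 3 rose with SAHA in J-Lat A2 and 1 in Jurkat, where 3.53% and 1.84% of all genes tested rose. ACSL3, which activates fatty acids with CoA, was called in both, at 70.00 and 70.7 CPM with DMSO and 227 and 225 CPM with SAHA in J-Lat A2 (log2 change 1.68 ± 0.20 (SE), adjusted p = 0.00102) and at 126.4 and 155.4 CPM with DMSO and 437 CPM with SAHA in Jurkat (1.59 ± 0.24, adjusted p = 0.00723). TECR, an enzyme of chain elongation, rose in J-Lat A2 by 0.72 ± 0.15 (adjusted p = 0.0152), and ACSS2, which activates acetate, was called from 0.191 and 0 CPM with DMSO to 23.2 and 31.4 CPM with SAHA. With PMA, edgeR called 0 of the 23 in either line, with 5 in each at an unadjusted p under 0.05, and DESeq2 called 2 in each.

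Of 17 tested genes of the liver X receptors and their targets, LPCAT3, a phospholipid remodelling enzyme, rose with SAHA in J-Lat A2 by 1.25 ± 0.27 (SE) (adjusted p = 0.0193). RXRA, the partner of the liver X receptors, was called lower with SAHA in Jurkat, at 6.71 and 5.09 CPM with DMSO and 0 counts with SAHA. These were 1 of 17 in each line, where 3.53% of all genes tested rose in J-Lat A2 and 2.37% fell in Jurkat. With PMA, edgeR called 1 of the 17 in J-Lat A2, lower and not reported here (0.804% of all genes tested), and 0 in Jurkat, with 3 and 4 at an unadjusted p under 0.05, and DESeq2 called 1 in each. Of 22 genes of the isoprenoid branches toward prenylated proteins, dolichol and ubiquinone, edgeR called 0 with either agent in either line, where 8.43% and 1.98% of all genes tested were called for SAHA and PMA in J-Lat A2 and 4.22% and 2.27% in Jurkat. There were 6 and 2 at an unadjusted p under 0.05 for SAHA and PMA in J-Lat A2 and 2 and 0 in Jurkat, and DESeq2 called 0, 2, 1 and 0. The members of highest level there were COQ5 and ZMPSTE24, with changes of -0.16 ± 0.24 and -0.51 ± 0.22 for SAHA in J-Lat A2. ACSS2 and RXRA were named after their values were seen, and both rest on few counts in one group. ACSS2 passed the filter on low counts through groups given SAHA or PMA.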

How the data were processed

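Full-length cDNA primed with poly(T) was sequenced from single cells, 1 per well, and each well is a sample. The authors deposited expected counts per gene, made with Salmon 1.5.1 and alevin on GRCh38.p13, per the submitters' processing notes. Of the non-zero values, 12.8% were not whole (tolerance 1e-06), and there are no molecular identifiers, so intervals cover counting error only. Symbols were matched for 20271 of 20302 features. Plates were assigned to 2 batches from the series' design text and the plate numbers.

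Per group and batch, counts were added over the 410 kept wells, rounded and tested in edgeR 4.0.16 (R 4.3.3) with TMM scaling, filterByExpr and a quasi-likelihood F test with group and batch terms (2 residual degrees of freedom, 7.75 prior). Tests are two-sided, a gene was called at a Benjamini-Hochberg adjusted p under 0.05 over 13560 genes, and standard errors are the log2 change over the root of F. The batch pairs the groups by the design; the deviations of its sums correlated at 0.078, 0.050 and 0.045 between group pairs. Labels name no separate cultures within a batch, so p-values measure the spread between these sums. Alternatives used limma 3.58.1, DESeq2 1.42.0, other scalings, filters, wells, plate sums, a fit without the batch and leaving out each sum. On simulated counts for SAHA in J-Lat A2 with 13560 genes, the fit recovered 48% of genes changed 2-fold and 99% of those changed 8-fold, with 9 false calls over both sizes. Cells were thinned to 100000 counts (387 cells) for shares and correlations. Python 3.11.15, numpy 2.4.6, pandas 2.3.3, scipy 1.17.1 and matplotlib 3.10.9 were used.

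The members and lists were chosen with earlier results of these data known. Values per sum and plate are given for members called with SAHA or PMA against DMSO, and for genes of the 5 further lists that were called and had a mean of at least 20 CPM. Some genes of these lists are not reported here.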

Additional observations from a re-analysis of the deposited data

Results flagged for a closer look

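Plates were compared within the 3 groups that lay on all 5 plates, for each member with a count there, in 88 checks, and 8 plates stood apart from the other 4 of their group (gap over range above 0.71). Chance flags about 1 in 20 such groups where values are normally distributed. ABCA1 in J-Lat A2 with SAHA and CYP51A1 in Jurkat with DMSO had counts on 1 plate alone. Their flags follow from that and are not set against this rate. In J-Lat A2 with DMSO, FDPS was 1683 CPM on plate P2769 against a median of 1007, EBP was 375 CPM on plate P2458 against a median of 229, and LSS was 79.1 CPM on the same plate against 32.1. In J-Lat A2 with SAHA, ABCA1 was 3.98 CPM on plate P2771 against a median of 0, and SREBF1 was lowest there at 4.74 CPM against 9.95. In Jurkat with DMSO, SC5D was 121.6 CPM on plate P2769 against 48.2, FASN was 11.1 CPM on plate P2770 against 5.75, and CYP51A1 was 0.674 CPM on plate P2458 against 0. Of these genes, FDPS and CYP51A1 were called with SAHA.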

How the results depend on the processing

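Of the 19 calls of members with SAHA or PMA against DMSO, 0 were lost and 0 reversed with RLE size factors, without the filter on low counts, with all 480 wells, with wells of at least 100000 counts, on plate sums (24 sums with the plate as a block) and with DESeq2. The labels name no separate cultures within a batch, so plates of 1 batch may hold the same cultures. Fits on plate sums, and on the second batch alone, count those plates as replicates, so keeping a call there is not independent support. All 19 calls were lost when each cell had equal weight (limma), which gave 0 members in each of the 7 comparisons that had any. DESeq2 called 3 members for PMA in J-Lat A2, 12 for SAHA in Jurkat, 8 for PMA against SAHA in Jurkat, 10 between the lines with DMSO and 5 for the line difference with SAHA, and the cause was not tested. Its counts over all genes are given below for SAHA and PMA against DMSO alone. The other DESeq2 counts have no background share here. Plate sums gave 2, 9, 4 and 1 members for PMA in J-Lat A2, PMA against SAHA in Jurkat, the lines with DMSO and the line difference with SAHA, and the second batch alone gave 2, 8, 1 and 2 and lost 1 of the 19 calls (CYP51A1 with SAHA in J-Lat A2). Without the replicate block (no batch term) 1 member was called for PMA in Jurkat, 2 for PMA against SAHA in J-Lat A2 and 1 between the lines, and MSMO1 with SAHA and INSIG1 with PMA in Jurkat were lost. Leaving out 1 sum at a time gave 4 to 10 members for SAHA in J-Lat A2, 0 to 2 for PMA in J-Lat A2, 6 to 9 for SAHA in Jurkat, 0 to 3 for PMA in Jurkat, 2 to 5 and 5 to 8 for PMA against SAHA in J-Lat A2 and Jurkat, 0 to 6 between the lines and 0 to 2 for the line difference with SAHA. TM7SF2 and STARD4 with SAHA in J-Lat A2 were lost without the first or second DMSO sum or the second SAHA sum, DHCR7 without the second sum of either, and FDFT1 without the second DMSO sum; MVD with SAHA in Jurkat was lost without the second Jurkat DMSO sum. Over all genes, 1143, 269, 572 and 308 were called for SAHA and PMA in J-Lat A2 and then in Jurkat, against 1971, 744, 1275 and 852 with DESeq2, 1681, 692, 1343 and 830 on plate sums and 0 in each with limma. Plate sums moved the median log2 change over all genes for PMA in Jurkat from 0.07 to 0.17, for SAHA in Jurkat from 0.11 to 0.21 and for PMA in J-Lat A2 from 0.04 to 0.12; the second batch alone gave 0.15 for the last, and DESeq2 and the fit without a batch term gave 0 for SAHA in Jurkat. Among shares of cells with a read, 20 of 180 moved on thinning. Groups in 1 batch have 1 sum each, so their spread is borrowed from the other groups.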
